A study of Mus musculus with 6 samples.

Results

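The genes described here encode ligands of the tumour necrosis factor (TNF) superfamily, their receptors and the TRAF adaptors. Their RNA was measured in colon of mice with Illumina arrays. They were chosen by symbol alone, as every probe annotated to Tnf, Lta, Ltb or Ltbr or to a symbol starting with Tnfsf, Tnfrsf or Traf and a digit, with the probe of highest mean signal over the 6 arrays standing for each gene. This gave 44 genes on 84 probes, of 19057 named genes and 45281 probes in all. They comprise 14 ligands, 21 receptors, 6 TRAF genes and 3 genes for proteins named for binding TRAF proteins. Tnfsf13 and Traf3 were not analysed here. The 3 KO samples are labelled Setd2 KO and the 3 control samples only as control. All 6 are colon tissue from mice of the C57BL/6 background aged 6 weeks, without a stated driver, allele or deleted cell type. Setd2 is the methyltransferase that places the trimethyl mark on lysine 36 of histone H3. Whether each sample is a separate animal is not stated, and p-values below reflect only how far these 6 samples spread, which may be technical.

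TNF family ligands are trimeric proteins on the surface of cells or shed from them. Their receptors carry no enzyme of their own. One class binds TRAF adaptors, which build ubiquitin chains and switch on NF-kB and MAP kinases, and another carries a death domain that can start caspase activation. In the intestine the family is known for TNF-driven inflammation, for lymphotoxin signals that build lymphoid follicles, for the BAFF and APRIL signals that keep B cells and plasma cells alive, and for costimulation of T cells.

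The deposited values are normalized intensities with a floor of 1, so a log2 value of 0 means that a probe was listed at the floor and has no order against other such values. On the floor lay 33.5% to 36.9% of probes on 5 arrays and 41.6% on control 2. Control 2 also stood apart in the probes compared below, so for many members the difference without it is given as well. The targeted gene, Setd2, had log2 values of 7.65, 6.89 and 7.19 on the KO arrays and 8.55, 9.23 and 8.36 on the control arrays, without overlap (log2 difference -1.47, limma adjusted p = 0.786). The position of this probe on the Setd2 transcript was not used here, so it may lie outside what was deleted. The 9 markers of colon epithelium were present on every array, with summed intensities of 44750 to 48222 in KO and 30672 to 50566 in control. These sums partly follow Car1, whose log2 values were 13.43, 13.73 and 13.38 in KO. Its control values were 8.85, 8.11 and 13.68, in array order. Krt8 (13.21 to 13.49) and Muc2 (13.54 to 13.86) varied little over the 6 arrays, Cdx2 (10.92 to 12.47) and Slc26a3 (5.78 to 8.65) more. The sums alone thus cannot tell how much epithelium each sample held. Genes for pancreatic digestive enzymes summed to 544 to 8499 in KO and 592 to 45336 in control, with the highest sum on control 1. Their part in the results below was not tested.

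No member passed the test. Of the 44 genes, 35 averaged more than 0.962 (log2), a cut set at percentile 40 of the probe means, and entered a limma fit over 18918 features. Of these 35, 0 had an adjusted p under 0.05, where 0% of all features did (0 features in limma, with 814 at an unadjusted p under 0.05). The members' adjusted p lay between 0.523 and 0.995. KO means were higher for 22 and lower for 13 of the 35, with a median log2 difference of 0.21, beside -0.09 over all features. That direction rested on control 2. Without it, 12 members were higher and 23 lower, with a median of -0.15, beside -0.00087 over all features. The members' median was -0.22 with array weights and 0.01 with an offset of 16, and 0.39 and 0.51 without control 1 and without control 3. KO and control arrays did not overlap for 3 members, Traf1, Tnfrsf4 and Tnfrsf23, all lower on every KO array. That is 8.57% of the tested members, where groups did not overlap for 8.68% of all features (5.31% lower and 3.38% higher), so the count is near the background. The same 3 members were those with an unadjusted p under 0.05, 0 higher and 3 lower in KO, where 4.3% of all features had one (1.66% higher and 2.64% lower). Of these, Tnfrsf23 averaged 0.43 in KO, under the cut, and 2.88 in control. It entered the fit only through the control arrays, so its place among the 3 is partly set by the filter. An exact permutation test of 3 against 3 arrays cannot go below p = 0.1.

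**Figure D1:**
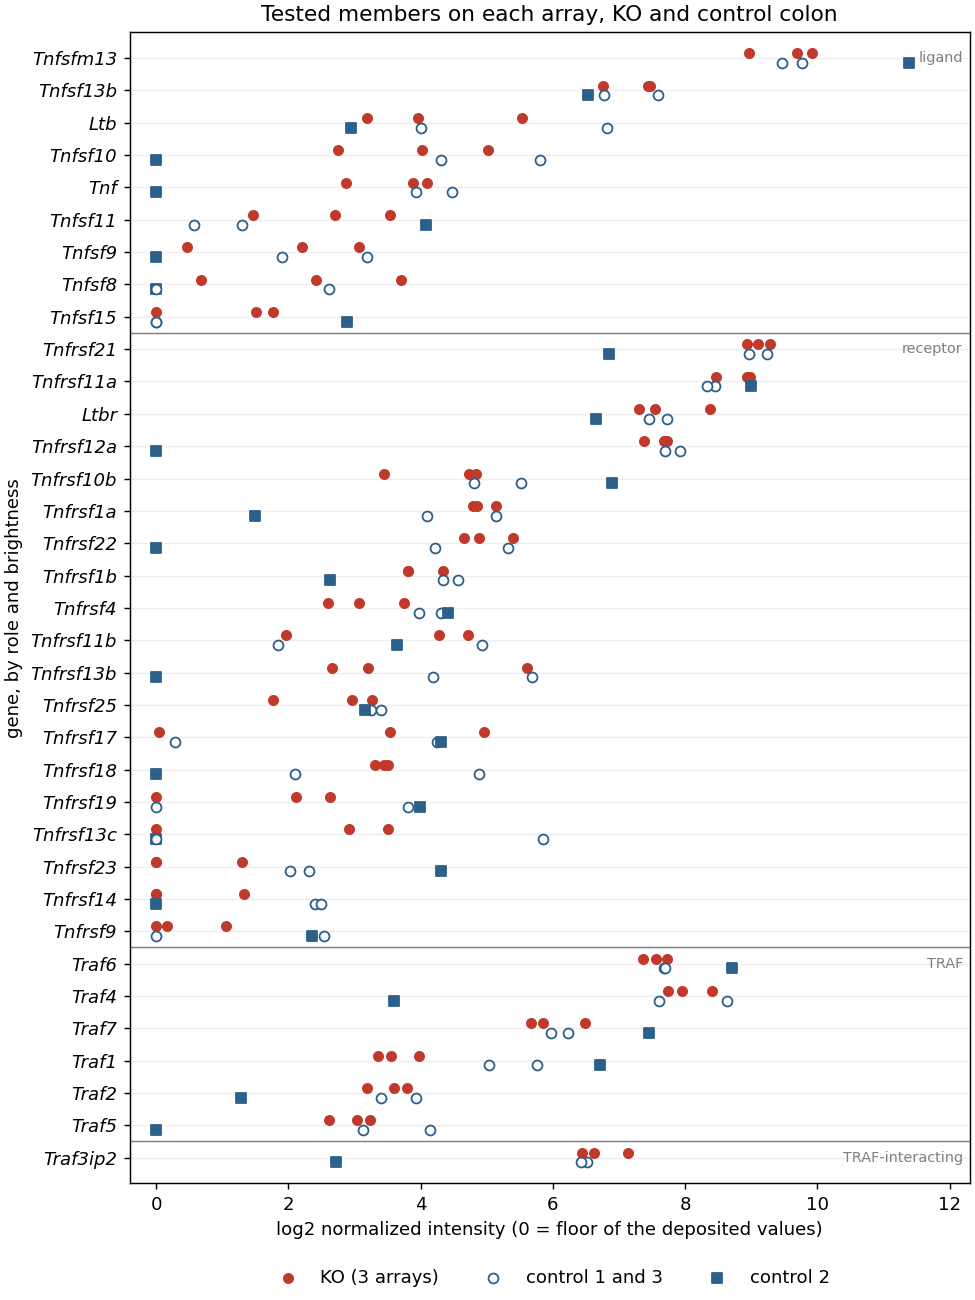
Log2 normalized intensity (horizontal axis, 0 is the floor) of the 35 tested members, grouped by role. Red points are the 3 KO arrays, open circles control 1 and control 3 and filled squares control 2. KO and control points separate for Traf1, Tnfrsf4 and Tnfrsf23, and control 2 lies at the far left for many genes, 8 times alone at the floor.

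Spread within the control group was wide for these genes. The median SD of the tested members was 0.57 over the KO arrays and 1.55 over the control arrays, and 0.51 over control 1 and control 3 alone. Over all features the medians were 0.48 in KO, 0.89 in control and 0.40 without control 2. Control 2 had the lowest of the 6 values for 17 of the 35 members (48.6%, beside 23.1% of all features) and the highest for 11 (31.4%, beside 42.2%). For 8 members (22.9%, beside 6.82% of all features) it was the only array at the floor.

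**Figure D2:**
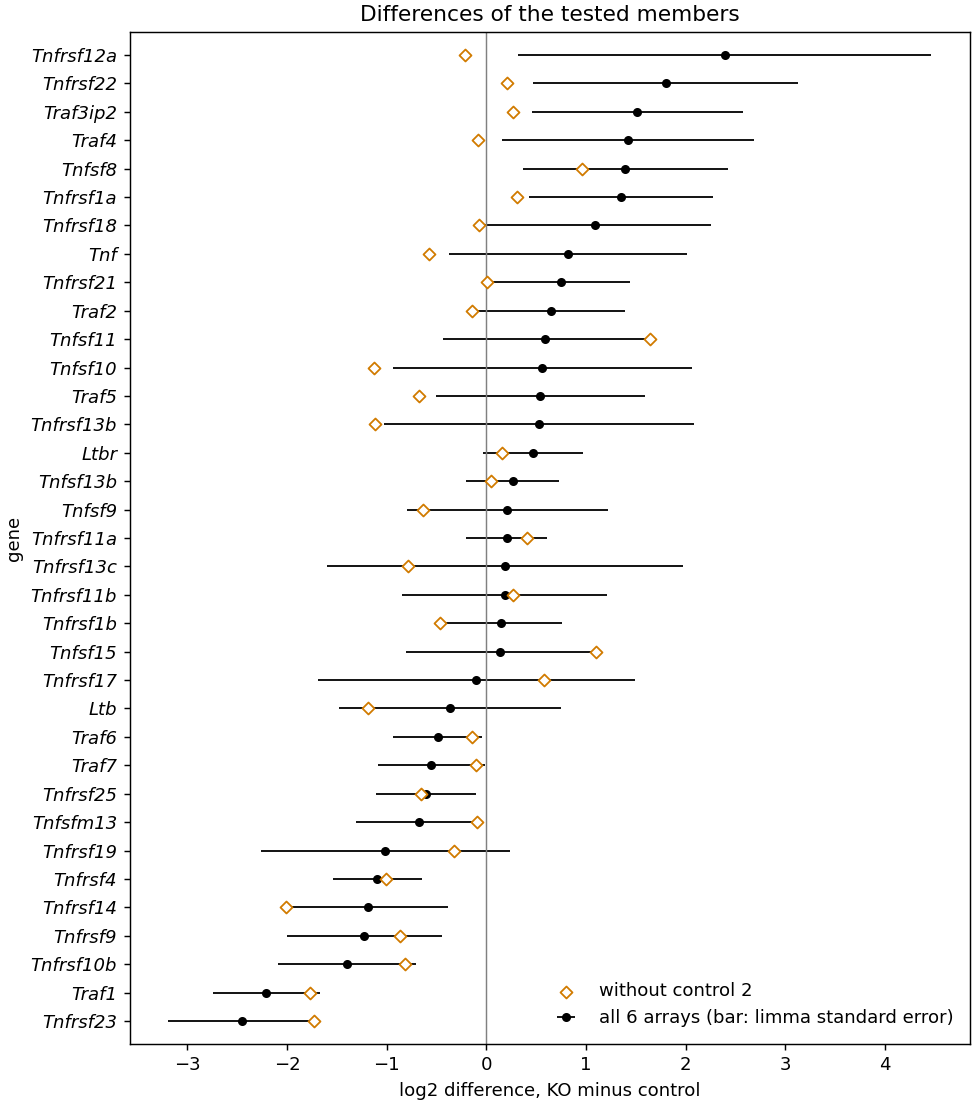
Log2 difference, KO minus control, of each tested member over all 6 arrays (black points, bars are limma standard errors) and without control 2 (open diamonds). Most of the larger positive differences, such as 2.39 for Tnfrsf12a and 1.42 for Traf4, lie at or below 0.31 without control 2, while Traf1 is at -1.76 without it.

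Among the TRAF adaptors, Traf1 was lower in KO on every array of its brightest probe. Traf1 lacks the RING domain of the other TRAF proteins, joins Traf2 in receptor complexes of activated lymphocytes and is itself a known NF-kB target. It measured 3.97, 3.55 and 3.36 on the KO arrays and 5.03, 6.72 and 5.76 on the control arrays (log2 values). The 3 KO values all lay below the 3 control values. The means were 3.63 ± 0.31 in KO and 5.83 ± 0.85 in control (SD, n = 3 each), a log2 difference of -2.21 (SE 0.54), so that the geometric mean signal in KO was 21.7% of that in control. This did not pass over all features (limma adjusted p = 0.523, unadjusted p = 0.0054, exact permutation p = 0.1). Leaving out each array in turn gave differences from -2.61 to -1.76, and the value without control 2 was -1.76. A second Traf1 probe measured 2.77, 3.39 and 4.19 in KO and 3.99, 6.28 and 5.16 in control. Its difference was -1.69 (-1.12 without control 2), but KO 3 lay above control 1, so the groups overlapped. In whole colon, fewer cells of a type that makes an RNA and less of that RNA per cell cannot be told apart.

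Traf6 and Traf7 differed by less than the SD of the control arrays. Traf6 is the ubiquitin ligase that also serves interleukin 1 and Toll-like receptors. It measured 7.73, 7.35 and 7.55 in KO and 7.69, 8.71 and 7.70 in control. Control 2 was the high array, and the difference of -0.49 became -0.15 without it (limma adjusted p = 0.940 with all arrays). All 3 of its probes over the filter were lower in KO on average, by -0.33 to -0.94. All were highest on control 2, and without it they differed by -0.15, -0.49 and 0.19, in order of brightness. Traf7, an atypical member with WD40 repeats, measured 5.66, 5.85 and 6.48 in KO and 5.97, 7.46 and 6.23 in control, a difference of -0.55 (limma adjusted p = 0.940) that became -0.10 without control 2.

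For Traf4 the difference depended on which probe was read. Traf4, a TRAF protein found in many epithelia, measured 8.41, 7.74 and 7.94 in KO and 8.63, 3.60 and 7.60 in control on its brightest probe. KO exceeded control by 1.42 (SE 1.26, limma adjusted p = 0.940), and the difference was -0.09 without control 2. The second probe was at the floor on control 2, with 8.80 and 7.97 on the other control arrays and 7.85 to 9.10 in KO. The other 2 probes showed no such gap, with 6.09 and 6.67 on control 2 and differences of -0.07 and -0.37 (0.0048 and 0.20 without control 2). Traf2, the main TRAF of TNF receptors, and Traf5, which acts beside it, were each lowest on control 2, at 1.29 and at the floor. They differed by 0.65 and 0.54, and by -0.14 and -0.67 without that array. A second Traf5 probe over the filter differed by -1.02, and by -0.64 without control 2, with a KO mean of 0.86, under the cut. Traf3ip2, the adaptor Act1 of IL17 receptors, measured 6.62, 7.14 and 6.44 in KO and 6.52, 2.72 and 6.43 in control, a difference of 1.52 that was 0.26 without control 2. A dim second Traf3ip2 probe over the filter went the other way, by -1.82, and by -2.43 without control 2. It was at the floor on KO 1 and KO 3. Its mean was 0.66 in KO, under the cut, and 2.48 in control, so it passed the filter only through the control arrays. On the brightest probes all 6 TRAF genes had lower means in KO without control 2, with a median of -0.14. With all arrays 3 were lower and 3 higher.

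**Figure D3:**
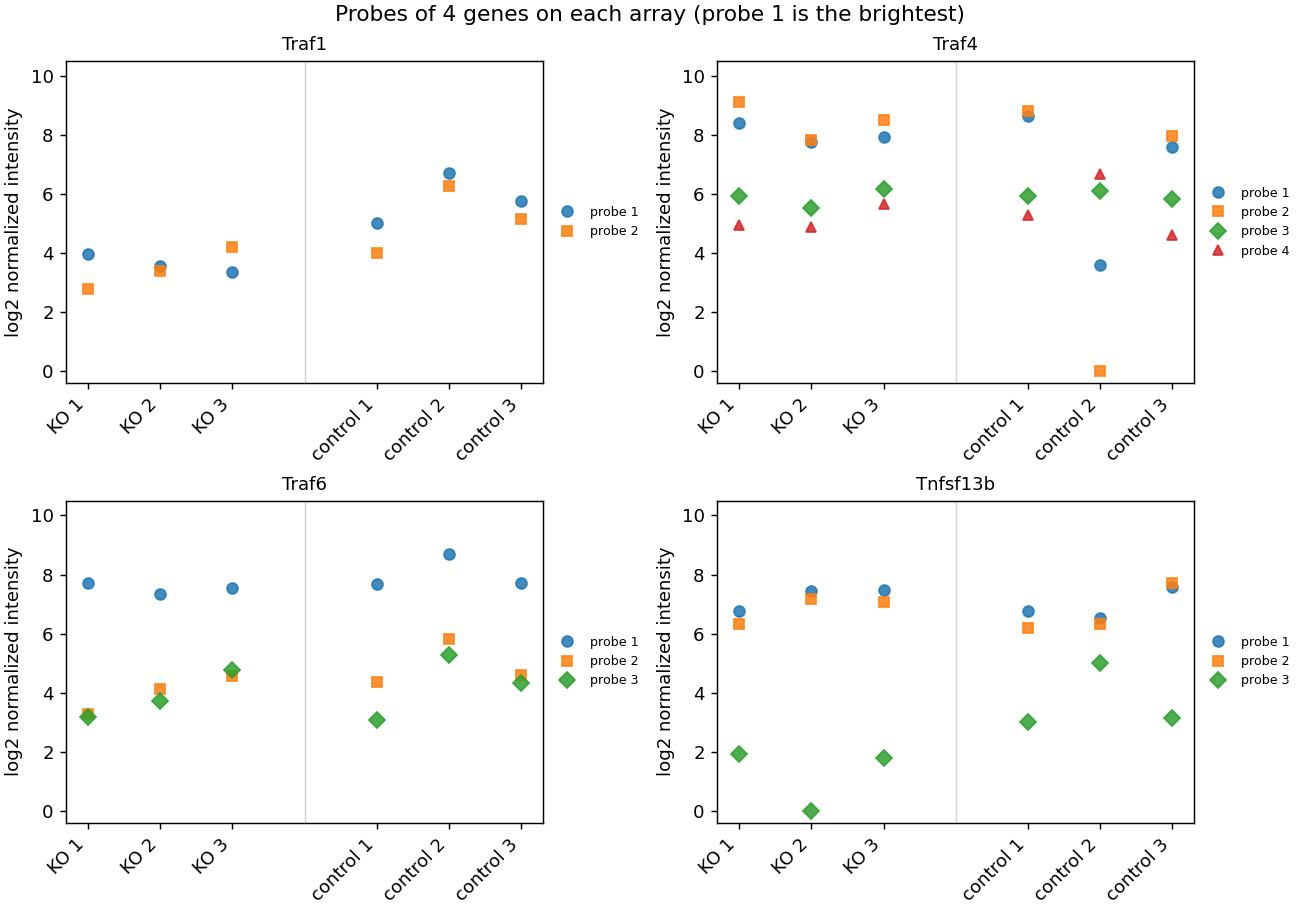
Log2 normalized intensity of the probes over the filter for Traf1, Traf4, Traf6 and Tnfsf13b on each array, KO arrays on the left and control arrays on the right of each panel. On control 2 the probes of Traf4 part, from 6.67 down to the floor, whereas the Traf1 and Traf6 probes are highest there.

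Of 14 members with more than 1 probe over the filter, the probes shared a direction over all 6 arrays for 6 (Tnf, Tnfrsf18, Tnfrsf1a, Tnfrsf21, Traf1 and Traf6). They split for 8 (Tnfrsf10b, Tnfrsf19, Tnfrsf1b, Tnfrsf22, Tnfsf13b, Traf3ip2, Traf4 and Traf5). For Tnfrsf1b, Tnfrsf22, Traf3ip2 and Traf5 the probe lower in KO averaged under the cut there. For Tnfrsf19 the probe higher in KO averaged under the cut in control. The filter thus partly set these splits. Without control 2 the Traf6 probes split as well. What each of those probes covers on the transcript was not used here.

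Promoter sequence is shown for Traf1, the member with the smallest p and a known NF-kB target, and beside it for Ltb, whose promoter holds a match to the kappaB consensus, the sequence that NF-kB dimers bind. These are the 250 bases before the RefSeq gene start in GRCm38.p6, written 5′ to 3′ on the strand of the gene, with the match in capitals. The Traf1 promoter lies at chr2:34961773-34962022 on the minus strand and that of Ltb at chr17:35194257-35194506 on the plus strand.
Traf1: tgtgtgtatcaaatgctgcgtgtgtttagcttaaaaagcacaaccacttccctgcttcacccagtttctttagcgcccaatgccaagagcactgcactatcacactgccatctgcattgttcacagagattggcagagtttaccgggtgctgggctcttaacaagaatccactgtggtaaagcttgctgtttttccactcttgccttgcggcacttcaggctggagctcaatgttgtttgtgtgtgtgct
Ltb: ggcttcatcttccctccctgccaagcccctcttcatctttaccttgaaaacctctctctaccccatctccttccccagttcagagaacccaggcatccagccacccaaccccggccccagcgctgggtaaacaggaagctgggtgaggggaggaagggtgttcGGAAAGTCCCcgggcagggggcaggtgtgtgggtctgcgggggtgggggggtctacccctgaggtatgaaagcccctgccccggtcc
Both strands were searched. The Traf1 stretch held no match, which says only that these letters are not in this window. The Ltb stretch held 1, GGAAAGTCCC (GGGACTTTCC on the other strand), from 87 to 78 bases before the start. For 36 of the 44 members 40 promoters were found, since some genes have several. Of these promoters 3 (those of Ltb, Tnfrsf8 and Tnfrsf9) held the consensus, or 7.5%, as did 3.90% of all 32851 promoters.

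Of the ligands, Tnf and the lymphotoxins gave no stable difference. Tnf, the founding cytokine of the family, measured 4.10, 3.89 and 2.87 in KO and 3.93 and 4.47 on control 1 and control 3, with control 2 at the floor. The KO mean was 0.82 higher (SE 1.20, limma adjusted p = 0.942), and the difference was -0.58 without control 2. Its other probe was also at the floor on control 2, with differences of 0.20 and -1.31. Lta, which forms the secreted lymphotoxin, stayed under the filter. It reached 0.61 on KO 3, 2.33 on control 1 and 1.20 on control 3, and the other arrays were at the floor. Ltb, the membrane partner of Lta that engages Ltbr, measured 5.53, 3.96 and 3.19 in KO and 6.82, 2.94 and 4.01 in control. The groups overlapped throughout (difference -0.36, SE 1.11, limma adjusted p = 0.963), and control 1 was the highest array. Without control 2 the difference was -1.19.

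Tnfsf13b, which encodes the B cell survival factor BAFF, measured 6.76, 7.44 and 7.47 in KO and 6.77, 6.53 and 7.59 in control. The groups were interleaved, with a difference of 0.26 (SE 0.47, limma adjusted p = 0.947) and 0.10 on the second bright probe. Without control 2 these came to 0.05 and -0.10. A dim further probe was lower on every KO array. It was at the floor on KO 2, measured 1.93 on KO 1 and 1.79 on KO 3, and had 3.01, 5.01 and 3.16 in control (difference -2.49, and -1.84 without control 2). Tnfsfm13 is a transcript that joins Tnfsf12 to Tnfsf13, its neighbours in the RefSeq gene order, and signal from those genes cannot be separated from it here. It measured 8.96, 9.92 and 9.69 in KO and 9.47, 11.38 and 9.77 in control. Control 2 was the highest array, and the difference of -0.68 (limma adjusted p = 0.940) was -0.09 without it. A second Tnfsfm13 probe was at the floor on every array but KO 2, where it measured 1.15. The Tnfsf12 probe was at the floor on every array but KO 3 and control 3.

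None of the remaining ligands separated the groups. Tnfsf10, the death ligand TRAIL, ranged from 2.75 to 5.01 in KO and reached 4.31 and 5.80 in control with control 2 at the floor, a difference of 0.56 with that array and -1.13 without it. Tnfsf11 encodes RANKL, which drives M cells over intestinal follicles as well as osteoclasts. It ranged from 1.47 to 3.54 in KO and from 0.57 to 4.08 in control, with a difference of 0.59, and 1.64 without control 2. Tnfsf8, Tnfsf9 and Tnfsf15 had at least 1 array at the floor, and Tnfsf4, Tnfsf12, Tnfsf14 and Tnfsf18 were under the filter. In all, 9 ligands were tested, 7 higher and 2 lower in KO on average (4 and 5 without control 2).

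Among the receptors for TNF itself, Tnfrsf1a, which carries a death domain and is present on most cells, ranged from 4.78 to 5.13 in KO and measured 4.09 and 5.14 on control 1 and control 3, with control 2 the lowest array. All 3 of its probes had higher KO means, by 0.92 to 1.35, and by 0.31, 0.75 and 0.58 without control 2, in order of brightness. Tnfrsf1b, the TNF receptor of leukocytes and endothelium, differed by 0.15, and by -0.46 without that array. Tnfrsf21, death receptor 6, measured 8.93, 9.10 and 9.29 in KO and 8.97, 6.85 and 9.24 in control. Without control 2 its difference of 0.75 (SE 0.69, limma adjusted p = 0.940) came to 0.0036. A dimmer Tnfrsf21 probe was higher on every KO array, with 4.41, 3.73 and 4.09 in KO and 2.96 and 3.70 on control 1 and control 3, and control 2 at the floor. It differed by 1.86, and by 0.75 without control 2. This and the dim Tnfsf13b probe were the only further probes over the filter whose groups did not overlap. Among all features, groups did not overlap for 8.68% (3.38% higher and 5.31% lower in KO), so such probes are found without regard to the family. Tnfrsf10b, the mouse TRAIL receptor, ranged from 3.44 to 4.84 in KO and from 4.80 to 6.89 in control. It differed by -1.40 (SE 0.69, limma adjusted p = 0.940) and by -0.82 without control 2, and 2 of its 4 probes over the filter went the other way.

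Receptors known from epithelium and stroma overlapped between the groups. Ltbr, the lymphotoxin beta receptor of stromal and epithelial cells, measured 7.54, 7.30 and 8.38 in KO and 7.72, 6.65 and 7.45 in control (difference 0.46, SE 0.50, limma adjusted p = 0.940, and 0.15 without control 2). KO 3 was the highest and control 2 the lowest array. Tnfrsf11a, the receptor RANK, measured 8.93, 8.47 and 8.99 in KO and 8.45, 8.995 and 8.33 in control, with interleaved groups (difference 0.21, SE 0.41, limma adjusted p = 0.950, and 0.41 without control 2). Tnfrsf12a, the receptor Fn14 induced in injured tissue, measured 7.73, 7.38 and 7.67 in KO and 7.69 and 7.92 on control 1 and control 3, with control 2 at the floor. With that array the gene had the largest positive difference among the tested members, 2.39 (SE 2.07, limma adjusted p = 0.940), which was -0.21 without it. Tnfrsf11b, the soluble RANKL decoy osteoprotegerin, ranged from 1.97 to 4.72 in KO and from 1.84 to 4.93 in control. Tnfrsf19, known from intestinal stem cells, was at the floor on KO 1 and control 1 and between 2.11 and 3.98 on the others.

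Of the T cell costimulatory receptors, Tnfrsf4 (OX40), which activated T cells display, was lower on every KO array. It measured 3.07, 2.60 and 3.74 in KO and 4.30, 4.41 and 3.97 in control. The means were 3.13 ± 0.58 in KO and 4.23 ± 0.23 in control (SD, n = 3 each), a difference of -1.09 (SE 0.45), so that the geometric mean signal in KO was 46.9% of that in control. The highest KO array, KO 3, lay just under the lowest control array, control 3. The limma adjusted p was 0.940 (unadjusted p = 0.0474, exact permutation p = 0.1), with -1.40 to -0.82 when each array was left out. It has 1 probe. Tnfrsf18 (GITR), its direct neighbour in the genome and a mark of regulatory T cells, gave 3.31 to 3.50 in KO and 2.09 and 4.87 in control with control 2 at the floor, a difference of 1.09 and of -0.07 without that array. Tnfrsf9 (4-1BB) and Tnfrsf25 (death receptor 3) differed by -1.23 and -0.60. Tnfrsf9 averaged 0.41 in KO, under the cut, and 1.63 in control, so it entered the fit only through the control arrays. It was at the floor on KO 1 and control 1. Its other probes, under the filter, had higher KO means, by 0.63 and 0.09. Tnfrsf14 (HVEM) was at the floor on KO 1, KO 3 and control 2, and Tnfrsf8 (CD30) was under the filter.

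Markers of T cells and cytotoxic cells mostly had lower KO means too. Of 10 listed T cell genes 8 were tested, 6 lower and 2 higher in KO, with a median of -0.35 (-0.73 without control 2). Cd3d differed by -1.27 without overlap (limma adjusted p = 0.810), whereas Cd8b1 differed by 0.21. Of 7 cytotoxic markers 4 were tested, all with lower KO means, with a median of -0.93 (-0.44 without control 2). Of these, Nkg7 and Cd160 differed by -1.28 and -1.07 without overlap, and by -1.61 and -0.70 without control 2. Groups did not overlap, with KO lower, for 5.31% of all features. In each list 0 genes passed. Summed over the T cell list, intensities were 1575 to 1934 in KO and 1559 to 1834 in control, most of it Cd8b1. The part of T cell numbers in the Tnfrsf4 and Traf1 values was not tested.

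Receptors of B cells and plasma cells varied widely within both groups. Tnfrsf13c, the BAFF receptor, measured 3.51 on KO 1, 2.91 on KO 2 and 5.85 on control 1, and the remaining arrays were at the floor. Tnfrsf13b (TACI) measured 2.65, 5.60 and 3.21 in KO and 5.68 and 4.19 on control 1 and control 3, with control 2 at the floor. Tnfrsf17 (BCMA), the survival receptor of plasma cells, ranged from 0.04 to 4.95 in KO and from 0.29 to 4.31 in control. All differences were under their standard errors, at 0.19 (SE 1.79), 0.53 (SE 1.55) and -0.10 (SE 1.59). All 3 turned without control 2, to -0.79, -1.12 and 0.58. Control 1, where Ltb, Tnfrsf13b and Tnfrsf13c were highest, was also the highest array for all 4 tested B cell markers and all 5 lymphotoxin receptor targets. Of these targets 4 had higher and 1 lower KO means, with a median of 0.25, against 1 higher and 4 lower and a median of -0.37 without control 2. The filter averaged all 6 arrays, so a high value on control 1 itself helped a gene to be tested. Cr2, a B cell marker under the filter, measured 2.55 on KO 2 and 1.03 on KO 3 and was at the floor elsewhere. The summed B cell markers were 17.4 to 87.0 in KO and 529, 74.3 and 21.5 on the control arrays, while Ms4a1 and Pax5 were at the floor on all 6. Cxcl13, the chemokine that gathers B cells in follicles, measured 5.48, 5.31 and 1.07 in KO and 6.44, 1.81 and 3.15 in control. The pancreatic genes also had their highest sum on control 1. The part of B cell markers and pancreatic genes in these values was not tested.

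**Figure D4:**
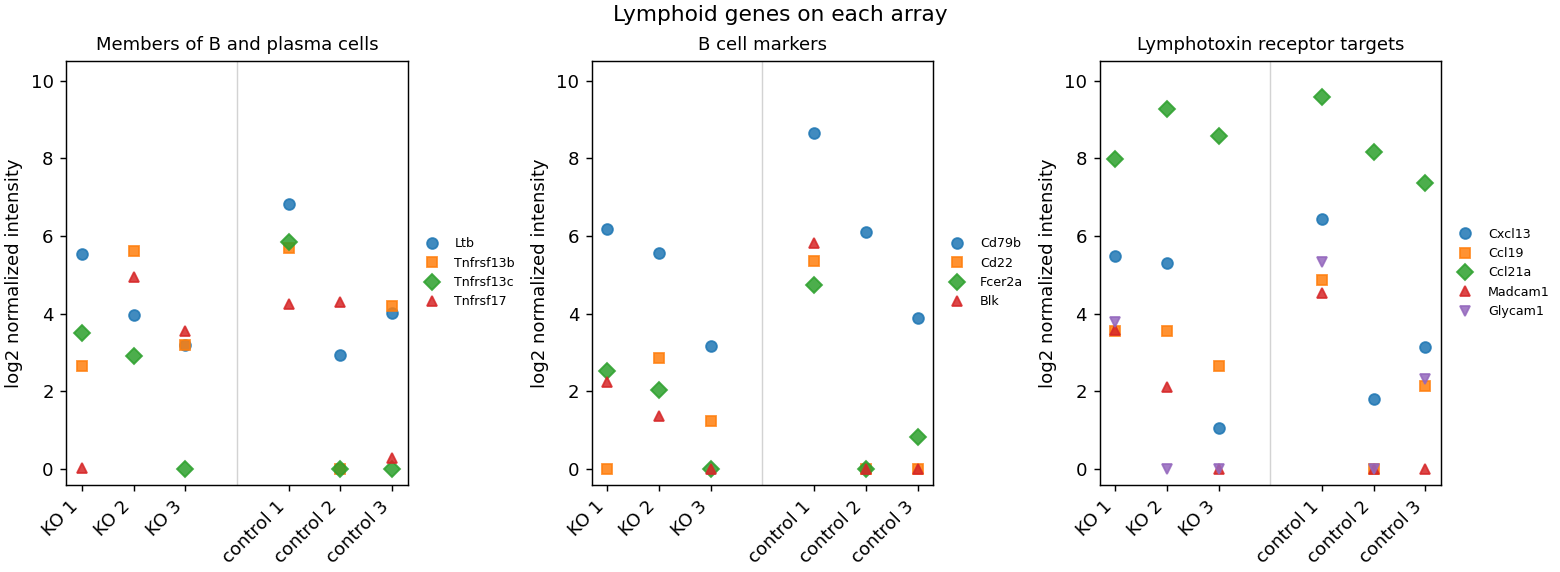
Log2 normalized intensity on each array of 4 members of B and plasma cells, of the 4 tested B cell markers and of 5 targets of the lymphotoxin beta receptor, KO arrays left and control arrays right. Control 1 is the highest array for every B cell marker and every target shown, and for Ltb, Tnfrsf13b and Tnfrsf13c.

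The last group of receptors lies side by side in the genome. Tnfrsf22 and Tnfrsf23 are decoy receptors for TRAIL in mouse, near copies of each other, and Tnfrsf26 lies beside them. Because the copies are alike, their probes may not separate them. Tnfrsf23 was at the floor on KO 1 and KO 2 and measured 1.30 on KO 3, against 2.02, 4.31 and 2.31 in control. The groups did not overlap (difference -2.45, SE 0.75, limma adjusted p = 0.810, unadjusted p = 0.0149), but with 2 KO arrays at the floor this is no fold change. Without control 2 it was -1.73. The brightest Tnfrsf22 probe went the other way, with 4.66, 5.39 and 4.89 in KO. It had 4.22 and 5.32 on control 1 and control 3 and was at the floor on control 2. Its difference of 1.80 was 0.21 without control 2. Of the other Tnfrsf22 probes over the filter, 1 differed by 1.21 and 1 by -1.56 (1.85 and -2.45 without control 2). The latter probe averaged 0.23 in KO, under the cut, and 1.79 in control, so it passed the filter only through the control arrays. It was at the floor on KO 3 and control 2. Tnfrsf26 was at the floor on all arrays but KO 3. Altogether 19 of 21 receptors were tested, 11 higher and 8 lower in KO (7 and 12 without control 2).

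The pathway around the members showed no called gene either. Superfamily genes under other symbols had 7 of 11 tested, all 7 lower in KO, with a median of -0.59 (-0.53 without control 2, when 6 were lower). Cd40, the receptor through which T cells help B cells and dendritic cells, measured 4.66 ± 0.45 in KO and 5.77 ± 0.80 in control (SD, n = 3 each), a difference of -1.11 (limma adjusted p = 0.940). Its ligand Cd40lg was under the filter and not tested. It was at the floor on every KO array and on control 3, with 2.63 and 3.04 on control 1 and control 2. Of the other listed genes under the filter, Cd70 and Eda had higher and Eda2r lower KO means. Without control 2 the Cd40 difference was -0.90. Fas, the death receptor, differed by -0.15 and Relt by -0.82, and by -0.03 and -0.53 without control 2. Of the receptor complex and death signalling genes all 11 with a probe were tested, 4 higher and 7 lower, with a median of -0.38. Cflar, which holds back caspase 8, was the 1 gene of the 11 without overlap, where 8.68% of all features had none. It differed by -1.09 (limma adjusted p = 0.940), and by -0.62 without control 2. Edaradd and Mlkl differed by -1.86 and -0.89. Of 14 canonical NF-kB genes 7 were higher and 7 lower, with a median of 0.02, and of 3 non-canonical ones 2 were higher and 1 lower. Of 16 NF-kB target genes 6 were higher and 10 lower, with a median of -0.24. An unadjusted limma p under 0.05 was found for 1, the endothelial adhesion molecule Sele, where 4.3% of all features had one. Sele measured 2.85, 2.01 and 2.41 in KO and 1.41 on control 2, the other control arrays being at the floor (limma adjusted p = 0.699). It averaged 2.42 in KO and 0.47 in control, under the cut, so it entered the fit only through the KO arrays. Of the 16, 3 did not overlap, where 8.68% of all features did not: Sele and Bcl2l1 were higher in KO and Cyld lower. The place of Sele in both counts is partly set by the filter. Bcl2l1, a protector from apoptosis, differed by 1.55 (limma adjusted p = 0.940), with control 2 the lowest array at 1.76, and by 0.72 without it. Cyld, which removes ubiquitin chains, differed by -0.54 (limma adjusted p = 0.940), and by -0.31 without control 2. Medians of these lists stand beside -0.09 over all features, of which 55.4% were lower.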

How the data were processed

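RNA of 3 KO and 3 control colon samples was hybridised to 1 Illumina array each, per the labels. The authors deposited normalized intensities on a linear scale. The arrays share 1 median (3.82) and 1 maximum (16715), so a change in most genes in 1 direction cannot be read. The software behind them is not given in the sources used here. A further table was not used, because its 12 columns match no label. No 2 arrays held identical values.

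Intensities were log2 transformed without an offset. Probes were named through the platform annotation (34885 with 1 symbol, 18 with several and 10378 with none). KO and control were set against each other with limma 3.58.1 in R 4.3.3, 2-sided, with Benjamini-Hochberg adjustment over 18918 features, 14530 of them named, at 0.05, and tested on simulated data. Summaries were made in Python 3.11.15. Members and lists were chosen with earlier results of these data known. Array values are given for members with a mean log2 value of at least 6, members without overlap, and Tnf, Lta, Ltb and Ltbr, others by range. Those of Traf3ip2, Tnfrsf13b, Tnfrsf13c and Tnfrsf22 were added after their values were seen. Up to 4 genes of smallest p were named per list, and further ones after their values were seen. Promoters come from RefSeq. The number of arrays limits the precision. Alternatives changed the filter, offset, scaling, probe choice, variance model, array weights, replicate block and each array.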

Additional observations from a re-analysis of the deposited data

How the results depend on the processing

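In 14 alternatives 0 members, 0 pathway genes and 0 marker genes passed an adjusted p of 0.05 in limma. The smallest adjusted p of a tested member was 0.296, for Traf1 under array weights, and for Traf1 it was 0.447 without control 2. Without a filter 11 of 29453 features passed, 0 of them members, against 0 with it. The count at an unadjusted p under 0.05 was 814, and 467 with an offset of 16, 202 of 10308 above the 70th percentile and 1309 without control 3. Of the 35 members, 19 kept their direction in every alternative run, among them Traf1, Tnfrsf4 and Tnfrsf23, and 16 did not.

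The number of members lower in KO, 13 of 35, was 6 of 15 above the 70th percentile and 20 with array weights, and lay between 13 and 23 when each array was left out, with 23 without control 2. Setd2 stayed lower in all.

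With an offset of 16 the difference of Traf5 was -0.019, of Tnfsf10 -0.10, of Tnfsf15 -0.040, of Tnfrsf13b -0.038, of Tnfrsf13c -0.32 and of Tnfrsf17 0.013. With array weights it was -0.016 for Traf2, -0.47 for Traf5, -0.26 for Tnf, -0.60 for Tnfsf10, -0.64 for Tnfsf9, -0.51 for Tnfrsf13b, -0.34 for Tnfrsf13c, 0.78 for Tnfrsf17 and -0.35 for Tnfrsf1b. Leaving out each array gave ranges that span 0: Traf2 -0.14 to 1.18, Traf4 -0.086 to 2.43, Traf5 -0.67 to 1.40, Ltb -1.19 to 0.75, Tnf -0.58 to 1.66, Tnfsf10 -1.13 to 1.77, Tnfsf11 -0.12 to 1.64, Tnfsf15 -0.35 to 1.10, Tnfsf9 -0.64 to 0.96, Tnfrsf11b -0.63 to 1.03, Tnfrsf12a -0.21 to 3.75, Tnfrsf13b -1.12 to 1.73, Tnfrsf13c -0.79 to 2.14, Tnfrsf17 -1.43 to 1.30, Tnfrsf18 -0.071 to 2.37 and Tnfrsf1b -0.46 to 0.51. For 12 members the direction turned without control 2. The cause was not tested.

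With the replicate number as a block 0 features passed, with 840 at an unadjusted p under 0.05. Deviations of same-numbered KO and control arrays correlated at 0.163, -0.0937 and 0.0372, and not every array correlated best with its own number. With so few arrays per group, these correlations cannot decide whether same-numbered samples were paired. The labels give only the number.

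Signal near the floor limits most members: 9 of 44 had a mean log2 value of at least 6.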

Other observations

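Several members lie side by side in the RefSeq gene order, and the log2 differences, KO minus control, of such neighbours were as follows. Lta and Tnf are direct neighbours with Ltb beside Tnf, and Tnf and Ltb differed by 0.82 and -0.36, and by -0.58 and -1.19 without control 2. Ltbr and Tnfrsf1a, with 1 gene between them, differed by 0.46 and 1.35, and by 0.15 and 0.31 without control 2. Tnfrsf18 and Tnfrsf4 are direct neighbours and differed by 1.09 and -1.09, and by -0.07 and -1.002 without control 2. Tnfsf15 and Tnfsf8 differed by 0.13 and 1.39, and by 1.095 and 0.96 without control 2. Tnfrsf22, on its brightest probe, and Tnfrsf23 differed by 1.80 and -2.45, and by 0.21 and -1.73 without control 2. A dimmer Tnfrsf22 probe, which passed the filter only through the control arrays, differed by -1.56. None of these passed in limma, and the differences between neighbours were not tested.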
